A study of Homo sapiens with 31 samples.

Results

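The genes described here are 10 components of the DNA damage checkpoint and of the CDK12 complex, namely ATM, ATR, ATRIP, TOPBP1, CHEK1, CHEK2, WEE1, CDK12, CDK13 and CCNK. They were chosen by name, as genes of ATM and ATR signalling, WEE1, and the kinases CDK12 and CDK13 with their cyclin, with no threshold on a measured value, at a time when earlier results of these data were known. All 10 were found among the 19221 genes used, and all 10 passed the filter on low values in each comparison.

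mRNA was sequenced from cultured human cell lines, used by the study as ovarian cancer models, in 4 groups, 31 libraries in all. The aim was to ask which genes differ after loss of C/EBPβ and after acquired resistance to olaparib, an inhibitor of PARP enzymes. The paper concedes doubts about C13* because of its origin, and says A2780 was reported as an unlikely line of high-grade serous ovarian cancer. C13*, a cisplatin-resistant line, carried either a control shRNA (shCON, n = 7) or an shRNA against CEBPB, the gene of the transcription factor C/EBPβ (shCEBPB, n = 8), both delivered by lentivirus. A2780 (n = 8) was the untreated parent line, and A2780 OlaR (n = 8) was a single resistant strain raised from A2780 under rising olaparib exposure and accepted as resistant by its IC50. No group combined the knockdown with olaparib. Since A2780 OlaR is 1 strain, resistance and other traits of that strain cannot be told apart. In the same way, the knockdown and other traits of the shCEBPB cells cannot be told apart. The words 'after the knockdown' below mean only shCEBPB against shCON. Replicates are given by the study as biological, and the p-values measure the spread between these libraries.

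ATM and ATR are large kinases of the PI3K-like family that start the response to damaged DNA. ATM is recruited to double-strand breaks and signals through CHK2, the product of CHEK2, while ATR, held by its partner ATRIP on single-stranded DNA at stalled forks and activated by TOPBP1, signals through CHK1, the product of CHEK1. CHK1 and WEE1 hold back the cyclin-dependent kinases that drive S phase and mitosis, and CDK12 and CDK13, each bound to cyclin K (CCNK), phosphorylate RNA polymerase II and sustain the transcription of long DNA repair genes, ATM and ATR among them. Inhibitors of ATR, CHK1, WEE1 and CDK12 are studied in ovarian cancer in combination with PARP inhibitors.

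The table the authors deposited holds FPKM, the fragments assigned to a gene, scaled for how long the gene is and for how many fragments were sequenced. FPKM hold no read totals, so the absolute depth is unknown, and the steps between low values gave relative depths of 0.865 to 1.23 around the median library. The targeted gene was lower in every knockdown library. CEBPB ranged from 75.2 to 101 FPKM in shCON (median 85.4) and from 30.2 to 58.7 FPKM in shCEBPB (median 49.5), and the shCEBPB mean was 54.9% of the shCON mean. What remained differed by library number, at 40.7% for the libraries numbered 1 to 3 (37.8 against 92.9 FPKM) and 65.5% for those numbered 4 to 8 (52.8 against 80.6 FPKM), and within shCEBPB these ranges did not overlap. The closeness of the profiles went against the labels. Across 12891 genes the mean log2 profile of A2780 OlaR correlated at 0.993 with that of C13* shCON and at 0.705 with that of A2780, its labelled parent, and shCON correlated at 0.789 with shCEBPB (a description across genes, which are not independent). The 8 epithelial and squamous markers summed to between 4219 and 5098 FPKM in A2780 OlaR, 3747 and 4250 in shCON, 1776 and 2149 in shCEBPB and 85.2 and 93.5 in A2780, where KRT5 was at 0 in every library. In shCEBPB that sum came from KRT7, KRT8 and KRT18. The other 5 markers averaged below 1 FPKM there, with KRT5 at 0.013 against 1530 FPKM in shCON, KRT19 at 0.031 against 1470, EPCAM at 0.57 against 111, CDH1 at 0.65 against 82.9 and TP63 at 0.079 against 53.1. The 7 mesenchymal markers summed to between 897 and 943 FPKM in A2780 and between 43.8 and 49.1 in A2780 OlaR. In shCON their sum was 54.3 to 61.3 FPKM and in shCEBPB 358 to 387 FPKM. VIM made up most of it in A2780 (809 FPKM on average) and in shCEBPB (342 FPKM, against 9.82 in shCON). By group mean, VIM, ZEB1 and ZEB2 were higher in shCEBPB than in shCON, and CDH2, FN1, TWIST1 and SNAI2 were lower. SNAI2 (13.4 against 0.571 FPKM) and FN1 (7.70 against 0.524 FPKM) were higher in A2780 OlaR than in A2780, and the others lower. The 7 ovarian and Müllerian markers summed to between 998 and 1104 FPKM in shCEBPB and between 35.7 and 41.9 FPKM in shCON. In A2780 they summed to 14.9 to 18.6 FPKM and in A2780 OlaR to 27.1 to 38.6 FPKM. Most of the shCEBPB sum came from FOLR1 (887 FPKM on average, against 1.20 in shCON) and MSLN (154 against 30.7 FPKM). SOX17, MUC16 and EMX2 also had a higher mean there. PAX8 went the other way, with a mean of 0.54 FPKM after the knockdown against 6.10 FPKM, as did WT1 (0.023 against 0.82 FPKM). The marker profile thus differed widely between shCEBPB and shCON, as it did between A2780 OlaR and A2780, and its part in the differences of the 10 genes was not tested. Of the 7 ovarian and Müllerian markers, 2 or 3 had a median of at least 1 FPKM in each group. PTPRC, a marker of blood cells, averaged 85.9 ± 7.94 FPKM (SD, n = 8) in A2780 and 0.00079 FPKM in A2780 OlaR, while every shCON library had it at 0. The other blood markers did not follow it, with CD3E at 0 in every A2780 library and CD14 at a mean of 0.31 FPKM there. The endothelial markers PECAM1 (0) and VWF (0.034 FPKM) were low in A2780. The stromal markers COL1A1 (17.4 against 4.46 FPKM), COL1A2 (4.04 against 0.0011) and DCN (9.59 against 0) had higher means in A2780 than in A2780 OlaR. The origin of the libraries was not tested, and in bulk RNA a change in the kinds of cells and a change in the RNA of each cell cannot be told apart. In shCON replicate 1, a single label field gives A2780 as the cell line while the title gives C13*. Libraries also differed by the number in their code, since within shCEBPB and A2780 OlaR the libraries numbered 1 to 3 stood apart from those numbered 4 to 8, and values within each range are given beside the results they touch.

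Differences between groups were taken on log2(FPKM + 1) with limma, with Benjamini-Hochberg adjustment over all genes tested. The addition of 1 understates the change of low genes. Of the 10 genes, 6 passed an adjusted p of 0.05 between shCEBPB and shCON, 4 higher and 2 lower, while 84.7% of the 12006 genes tested passed. Libraries of shCEBPB and shCON were fully apart for 4 of the 10 genes (ATM, CDK12, CDK13 and CCNK), against 66.0% of all genes tested. A change of at least 2-fold on this scale was met by 29.5% of all genes tested, and CDK12 came nearest to it among the 10 genes, with a log2 difference of -0.96. The median log2 difference of the 10 genes was 0.01, against -0.07 for all genes tested. Between A2780 OlaR and A2780 all 10 genes passed, 7 higher and 3 lower, against 89.8% of 12458 genes. For 9 of the 10 the libraries did not overlap, against 74.1% of all genes tested, and CHEK1 and CHEK2 changed at least 2-fold, as did 35.7% of all genes tested. The share that passed was thus below the background in the first comparison and near it in the second, but with GC and length correction 9 of the 10 passed in the first, against 87.7% of all genes, so that the gap was not kept in that setting. The median was 0.74 for the 10 genes and -0.12 for all genes tested. A correction for the GC content and length of the genes moved the median of all genes to -0.01. Relative to the uncorrected median, the 7 higher genes differed by 0.68 to 1.63 and the 3 lower ones by -0.37 to -0.16.

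**Figure D1:**
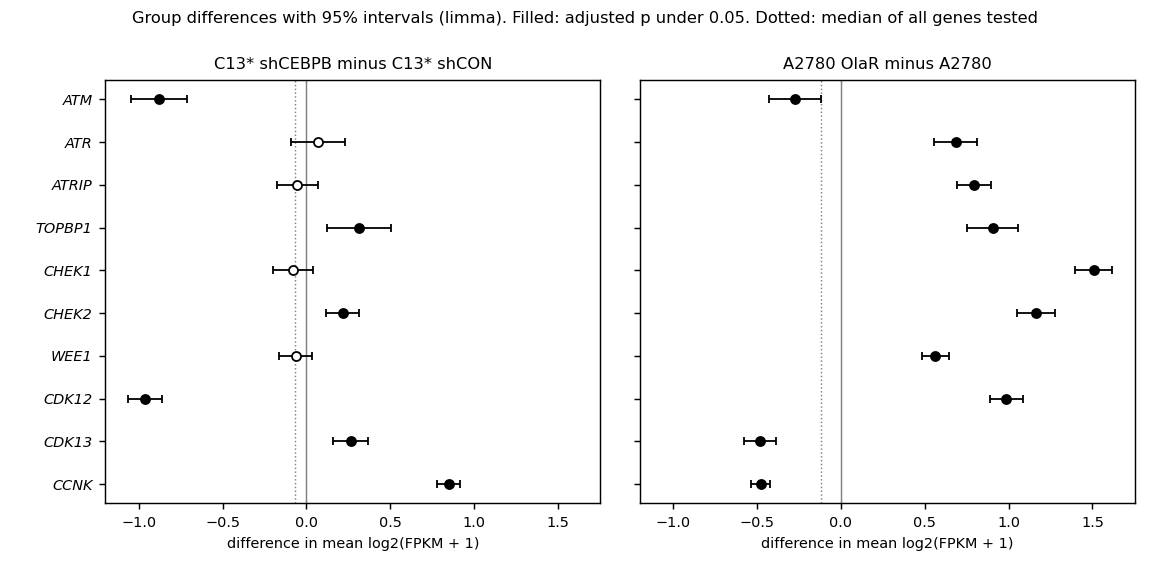
Difference in mean log2(FPKM + 1) between groups (horizontal axis) for each of the 10 genes, with 95% intervals from limma. Filled points passed an adjusted p of 0.05, and the dotted line marks the median of all genes tested; CDK12 (-0.96) and ATM (-0.88) lie lowest and CCNK (0.85) highest between shCEBPB and shCON, and CHEK1 (1.51) lies highest between A2780 OlaR and A2780.

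ATM, the kinase of double-strand breaks, lies at chr11:108223044-108369102 on the plus strand of hg38 and has 63 exons in its canonical transcript. It ranged from 8.17 to 10.1 FPKM in shCON (median 9.09) and from 3.70 to 5.56 FPKM in shCEBPB (median 4.09). Every shCEBPB library was thus below every shCON library. Mean ATM was 4.51 ± 0.79 FPKM (SD, n = 8) after the knockdown against 9.05 ± 0.65 (SD, n = 7) with the control shRNA, or 49.8%, and the log2 difference was -0.88 (SE 0.08, limma adjusted p = 9.24e-09, exact permutation p = 0.000155, the smallest these group sizes allow). The shCEBPB libraries numbered 1 to 3 (5.21 to 5.56 FPKM) lay above those numbered 4 to 8 (3.70 to 4.12 FPKM). Within the ranges the difference was -0.62 for libraries 1 to 3 and -1.04 for libraries 4 to 8, and it passed in both.

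In A2780, ATM ranged from 9.71 to 12.4 FPKM (median 10.9), and in A2780 OlaR from 7.11 to 10.9 FPKM (median 8.63), so the groups overlapped. The log2 difference was -0.27 (SE 0.07, limma adjusted p = 0.00194). It rested on the libraries numbered 4 to 8, where it was -0.46, while it was 0.03 for libraries 1 to 3 (limma adjusted p = 0.579), and after GC and length correction it was -0.04 (limma adjusted p = 0.288). The order of its means was A2780, shCON, A2780 OlaR and shCEBPB. Neighbours in that order passed the test except shCON and A2780 OlaR, whose difference was -0.02 with a 95% interval from -0.19 to 0.14. That value averages over opposite ones, since A2780 OlaR was higher by 0.22 for libraries 1 to 3 (limma adjusted p = 0.0113) and differed by -0.17 for libraries 4 to 8 (limma adjusted p = 0.0480).

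CHEK2 encodes CHK2, the kinase that ATM activates, and lies at chr22:28687743-28742422 on the minus strand. It ranged from 24.4 to 26.0 FPKM in shCON (median 24.8) and from 26.0 to 32.1 FPKM in shCEBPB (median 29.9), so that the lowest shCEBPB library met the highest shCON library. The log2 difference was 0.22 (SE 0.05, limma adjusted p = 3.75e-04). ATM and the gene of its substrate kinase thus differed in opposite directions between shCEBPB and shCON. In A2780, CHEK2 ranged from 9.24 to 12.4 FPKM (median 10.5), and in A2780 OlaR from 22.4 to 26.8 FPKM (median 24.8). The groups lay far apart, with a mean of 10.5 ± 1.05 FPKM (SD, n = 8) against 24.7 ± 1.62 (SD, n = 8), and the log2 difference was 1.16 (SE 0.05, limma adjusted p = 9.07e-14). In the order shCEBPB, shCON, A2780 OlaR and A2780, the middle neighbours did not pass, with a difference of -0.02 and an interval from -0.11 to 0.06. The annotation names 8 pseudogenes after CHEK2, and 293 of its exonic bases are shared with HSCB on the opposite strand, so some of its reads could be split or shared, depending on a counting setting that is not stated.

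ATR and ATRIP, the kinase and its partner, both map to chromosome 3. ATR lies at chr3:142449007-142578733 on the minus strand. It shares 9.3% of its exonic bases with other genes, with 2048 bases in the pseudogene EIF2AK1P1 on the opposite strand and 497 in a noncoding RNA gene on the same strand. It ranged from 9.38 to 12.3 FPKM in shCON (median 9.89), from 9.62 to 13.3 FPKM in shCEBPB (median 10.2), from 5.0 to 5.9 FPKM in A2780 (median 5.43) and from 7.87 to 10.9 FPKM in A2780 OlaR (median 8.92). The first 2 groups overlapped, and A2780 lay below every library of the other groups. Between shCEBPB and shCON the log2 difference was 0.07, with a 95% interval from -0.09 to 0.23 (limma adjusted p = 0.411). It was 0.31 for libraries 1 to 3 (limma adjusted p = 0.0068), -0.08 for libraries 4 to 8 (limma adjusted p = 0.261) and 0.25 after GC and length correction (limma adjusted p = 3.22e-06), so neither the size nor the direction was the same in every setting. Between A2780 OlaR and A2780 the difference was 0.68 (SE 0.06, limma adjusted p = 2.02e-09).

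ATRIP lies at chr3:48446710-48467645 on the plus strand and shares 1448 exonic bases with the nuclease gene TREX1 on the same strand, so reads there cannot be assigned to 1 of the genes by strand. Its values ran from 8.34 to 10.7 FPKM in shCON (median 10.2) and from 8.37 to 10.1 FPKM in shCEBPB (median 9.43), and the log2 difference was -0.05 with an interval from -0.17 to 0.07 (limma adjusted p = 0.392). In A2780 the values were 4.23 to 5.59 FPKM (median 4.82), and in A2780 OlaR 8.27 to 10.1 FPKM (median 9.22), with no overlap. That difference was 0.79 (SE 0.05, limma adjusted p = 5.09e-12). The ratio of ATR to ATRIP within a library averaged 1.07 in shCON, 1.18 in shCEBPB, 1.12 in A2780 and 1.02 in A2780 OlaR, and its ranges overlapped in every pair of groups. For the libraries numbered 1 to 3 only shCEBPB stood apart, at 1.35 to 1.47. There shCON (1.06 to 1.12), A2780 (0.94 to 1.21) and A2780 OlaR (1.04 to 1.22) overlapped one another. For the libraries numbered 4 to 8 the ratio was 0.95 to 1.21 in shCEBPB and 0.90 to 1.20 in shCON. These ratios were not tested.

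TOPBP1, the scaffold that activates ATR, lies at chr3:133598175-133662380 on the minus strand. Its values ran from 22.9 to 28.5 FPKM in shCON (median 25.3) and from 27.9 to 41.2 FPKM in shCEBPB (median 28.5). The upper end of shCEBPB came from the libraries numbered 1 to 3 (36.1 to 41.2 FPKM), while those numbered 4 to 8 (27.9 to 28.9 FPKM) lay at the edge of shCON. The log2 difference over all libraries was 0.31 (SE 0.09, limma adjusted p = 0.00381). It was 0.63 for libraries 1 to 3 and 0.12 for libraries 4 to 8, where it did not pass (limma adjusted p = 0.0698). In A2780, TOPBP1 ranged from 11.8 to 15.2 FPKM (median 12.6), and in A2780 OlaR from 21.7 to 29.8 FPKM (median 23.4). These groups did not overlap, and the difference was 0.90 (SE 0.07, limma adjusted p = 5.57e-10). A2780 was last in the order of the means of ATR, ATRIP and TOPBP1 and passed against its neighbour each time, while shCON and A2780 OlaR did not pass for any of these genes, with intervals from -0.28 to 0.02 for ATR, -0.18 to 0.03 for ATRIP and -0.19 to 0.13 for TOPBP1. Within the ranges of the library number this was otherwise. TOPBP1 held 29.2 to 29.8 FPKM in A2780 OlaR against 24.5 to 25.4 FPKM in shCON for libraries 1 to 3 (difference 0.24, limma adjusted p = 0.0013), and a mean of 22.6 against 26.0 FPKM for libraries 4 to 8 (difference -0.19, limma adjusted p = 0.0155). For libraries 4 to 8 the differences of ATR (-0.27) and ATRIP (-0.15) passed as well.

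CHEK1 encodes CHK1, the kinase that ATR activates, and lies at chr11:125625163-125676255 on the plus strand. It shares 13.4% of its exonic bases with other genes, with 751 bases in a long noncoding RNA gene on the opposite strand and 53 in STT3A on the same strand. It showed the largest difference of the 10 genes between A2780 OlaR and A2780. The A2780 libraries held 7.30 to 8.60 FPKM (median 8.02), and the A2780 OlaR libraries held 21.8 to 27.9 FPKM (median 23.8). The ranges were separated by more than the width of either, and the ratio of the means was 3.08. The log2 difference was 1.51 (SE 0.05, limma adjusted p = 6.57e-16, exact permutation p = 0.000155), and it was larger in size than that of 79.2% of all genes tested. In shCON the values were 23.9 to 27.3 FPKM (median 25.5), and in shCEBPB 20.6 to 27.4 FPKM (median 23.8). These groups overlapped, and the log2 difference was -0.08 with an interval from -0.20 to 0.04 (limma adjusted p = 0.203). It was 0.05 for libraries 1 to 3, -0.16 for libraries 4 to 8 (limma adjusted p = 0.0328) and 0.13 after GC and length correction (limma adjusted p = 0.00289). No direction for CHEK1 after the knockdown was thus kept over the settings tried. The means of shCON, A2780 OlaR and shCEBPB, at 25.4, 24.4 and 24.1 FPKM, did not pass against one another over all libraries, while for libraries 4 to 8 A2780 OlaR differed from shCON by -0.16 (limma adjusted p = 0.0129). A2780, at 7.92 FPKM, lay far below all of them.

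CHEK1 carries a stretch of the form TTGCNNAA in 1 of the promoter windows that RefSeq gives for it (GRCh38.p14, 250 bases before to 50 after a start). This is a relaxed form of the C/EBP site, in which N may be any base. The window at chr11:125626106-125626405 on the plus strand, shown because the match lies 19 bases before that start, reads as follows, with the match in capitals; it reads TTGCTCAA on the opposite strand and overlaps a CCAAT match there.
CHEK1 promoter window: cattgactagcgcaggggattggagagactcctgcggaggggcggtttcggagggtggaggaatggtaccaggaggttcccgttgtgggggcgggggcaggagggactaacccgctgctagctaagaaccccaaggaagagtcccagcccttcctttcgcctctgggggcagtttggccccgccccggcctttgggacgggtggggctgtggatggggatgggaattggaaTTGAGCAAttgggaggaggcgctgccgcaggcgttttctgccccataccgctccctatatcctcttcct
The only other window of the 10 genes with the form was that of CDK12, which is shown with that gene. Both strands were searched. The form was thus in 2 of the 14 windows of 9 genes, against 10.5% of all 35116 promoter windows, and no window for WEE1 was used here. The CCAAT box was in 9 of the 14 windows, which belong to 5 of the 9 genes, against 34.6% of all windows, and the 3 CHEK1 windows overlap one another. The E2F forms TTTGGCGC and TTTCCCGC were in none of the 14 windows, against 0.652% and 1.63% of all windows. Other forms of the E2F site were not searched, so their absence from these windows is not shown. TTTGAA, the cell cycle homology region, was in 1 window, that of ATM, against 15.2%. Such matches describe the sequence and do not show binding.

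CHEK1 and CHEK2, the kinases downstream of ATR and ATM, were at nearly equal FPKM in shCON and A2780 OlaR, where the ratio of CHEK1 to CHEK2 within a library averaged 1.01 ± 0.06 (SD, n = 7) and 0.99 ± 0.06 (SD, n = 8). It was 0.82 ± 0.06 (SD, n = 8) in shCEBPB and 0.76 ± 0.08 (SD, n = 8) in A2780. The shCEBPB libraries (0.69 to 0.91) lay below the shCON libraries (0.95 to 1.10), while A2780 (0.64 to 0.89) and A2780 OlaR (0.86 to 1.06) overlapped.

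WEE1 encodes the kinase that places the inhibitory phosphate on CDK1 and CDK2, and lies at chr11:9573670-9593457 on the plus strand. Its values ran from 26.8 to 30.1 FPKM in shCON (median 27.9) and from 24.4 to 29.4 FPKM in shCEBPB (median 26.6). These groups overlapped, with a log2 difference of -0.06 and an interval from -0.16 to 0.04 (limma adjusted p = 0.219), and it passed in opposite directions in other settings, at 0.14 after GC and length correction (limma adjusted p = 0.0063) and at -0.12 with quantile normalization (limma adjusted p = 0.0381). In A2780 the values were 20.4 to 22.7 FPKM (median 21.5), and in A2780 OlaR 29.9 to 35.6 FPKM (median 32.1). Every A2780 OlaR library was above every A2780 library, and the difference was 0.56 (SE 0.04, limma adjusted p = 3.73e-11). This was the smallest difference of the 7 genes that were higher in A2780 OlaR. WEE1 was also 1 of only 2 of the 10 genes that passed between A2780 OlaR and shCON, where 42.2% of 11547 genes passed, with a difference of 0.19 (SE 0.04, limma adjusted p = 0.00268). The ratio of WEE1 to PKMYT1, the related kinase of CDK1, averaged 0.79 in shCON, 0.55 in shCEBPB, 0.93 in A2780 and 0.87 in A2780 OlaR, with overlap in every pair of groups. It depended on the library number, at 0.65 to 0.87 for libraries 1 to 3 and 0.40 to 0.45 for libraries 4 to 8 in shCEBPB, where shCON held 0.64 to 0.84 and 0.63 to 0.97. In A2780 OlaR it was 1.05 to 1.20 and 0.62 to 0.89, and in A2780 0.71 to 0.88 and 0.87 to 1.15.

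CDK12 showed the largest difference of the 10 genes between shCEBPB and shCON. This kinase lies at chr17:39461486-39567559 on the plus strand, has 14 exons and shares no exonic base with another annotated gene. In shCON it ranged from 25.8 to 30.0 FPKM (median 29.3), and in shCEBPB from 13.04 to 15.2 FPKM (median 14.2). The lowest shCON library thus held far more CDK12 than the highest shCEBPB library, and the shCEBPB mean was 49.6% of the shCON mean (14.0 ± 0.84 against 28.2 ± 1.85 FPKM, SD, n = 8 and 7). The log2 difference was -0.96 (SE 0.05, limma adjusted p = 2.08e-12, exact permutation p = 0.000155), larger in size than that of 69.3% of all genes tested. It passed in both ranges, at -0.86 and -1.03, and after GC and length correction, at -0.89. In A2780, CDK12 ranged from 12.6 to 15.3 FPKM (median 13.2), and in A2780 OlaR from 25.5 to 30.2 FPKM (median 27.2). The groups did not overlap, and the difference was 0.98 (SE 0.05, limma adjusted p = 1e-13). The means of CDK12 were thus high in 2 groups and low in the others. Those of shCON and A2780 OlaR differed by -0.03 (interval -0.13 to 0.08), those of A2780 and shCEBPB by -0.05 (interval -0.15 to 0.05), and neither pair passed. Between A2780 and shCEBPB, CDK12 did pass as lower in A2780 with quantile normalization (-0.19), with median ratio scaling (-0.16), after GC and length correction (-0.25) and for libraries 1 to 3 (-0.17), so the low groups were not shown to be level.

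The promoter window of CDK12, at chr17:39461236-39461535 on the plus strand (RefSeq, GRCh38.p14), is shown because it holds the relaxed form TTGCNNAA, in capitals, 182 bases before the start.
CDK12 promoter window: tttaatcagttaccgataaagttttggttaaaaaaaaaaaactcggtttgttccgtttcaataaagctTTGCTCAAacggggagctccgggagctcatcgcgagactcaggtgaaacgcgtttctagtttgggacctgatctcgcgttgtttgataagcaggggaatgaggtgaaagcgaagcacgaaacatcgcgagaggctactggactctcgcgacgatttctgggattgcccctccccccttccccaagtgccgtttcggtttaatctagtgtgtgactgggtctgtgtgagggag
Whether C/EBPβ binds there, or has a part in the level of CDK12, was not tested. CHEK1, the other gene with the form, did not pass between shCEBPB and shCON over all libraries. Mean CEBPB was 85.8 FPKM in shCON, 47.1 in shCEBPB, 99.7 in A2780 and 112 in A2780 OlaR. Mean CDK12 in the same order was 28.2, 14.0, 13.5 and 27.7 FPKM.

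CDK13, the closest relative of CDK12, lies at chr7:39950121-40099580 on the plus strand and differed in the opposite direction in both comparisons. It ranged from 8.28 to 9.02 FPKM in shCON (median 8.41) and from 9.11 to 11.7 FPKM in shCEBPB (median 10.4), with no overlap and a log2 difference of 0.26 (SE 0.05, limma adjusted p = 8.47e-05, exact permutation p = 0.000311). In A2780 it ranged from 12.1 to 13.9 FPKM (median 13.1), and in A2780 OlaR from 8.37 to 10.2 FPKM (median 8.79). Every A2780 library was above every A2780 OlaR library, and the difference was -0.48 (SE 0.05, limma adjusted p = 4.67e-09). The order of the means was A2780, shCEBPB, A2780 OlaR and shCON, in which the last neighbours did not pass (difference 0.08, interval -0.01 to 0.18), although they did for libraries 1 to 3 (0.20, limma adjusted p = 0.0108), after GC and length correction and with quantile normalization. CDK13 shares no exonic base with another gene.

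CCNK encodes cyclin K, the partner of both kinases, and lies at chr14:99481169-99535044 on the plus strand. It had the highest mean of the 10 genes in shCEBPB and in A2780. The shCON libraries held 25.0 to 26.4 FPKM (median 25.2), and the shCEBPB libraries held 44.9 to 47.8 FPKM (median 47.0). The libraries of a group lay close together, with an SD of 2.43% of the mean in shCON and 2.32% in shCEBPB. The ratio of the means was 1.83 and the log2 difference 0.85 (SE 0.03, limma adjusted p = 2.07e-14, exact permutation p = 0.000155), at 0.82 to 0.89 within the ranges. In A2780, CCNK ranged from 37.3 to 40.0 FPKM (median 37.8), and in A2780 OlaR from 26.5 to 28.6 FPKM (median 26.6). The difference was -0.48 (SE 0.03, limma adjusted p = 2.51e-12). CCNK was the other gene that passed between A2780 OlaR and shCON, with a difference of 0.08 (SE 0.03, limma adjusted p = 0.0342) and no overlap. This call was lost with either replicate block (limma adjusted p = 0.145 and 0.147), with a common sum (0.108), without shCON replicate 1 (0.0607), within either range of the library number and with GC and length correction under the block. The other neighbours in its order shCEBPB, A2780, A2780 OlaR and shCON passed. Of its 8220 exonic bases, 4893 (59.5%) are shared with CCDC85C on the opposite strand, and since strand use in counting is not stated, reads of the latter may be part of these values.

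The ratio of CDK12 to CDK13 differed by more than any gene of the complex alone in both comparisons, with ratios of its means of 0.405 for shCEBPB over shCON and 2.96 for A2780 OlaR over A2780, where those of CDK12 were 0.496 and 2.05. CDK12 over CDK13 within a library averaged 3.32 ± 0.20 (SD, n = 7) for shCON, 3.05 ± 0.08 (SD, n = 8) for A2780 OlaR, 1.35 ± 0.09 (SD, n = 8) for shCEBPB and 1.03 ± 0.06 (SD, n = 8) for A2780. No library of shCEBPB (at most 1.48) or A2780 (at most 1.12) reached the lowest of the other groups (2.89). Cyclin K per kinase went the other way, since the ratio of CCNK to the sum of CDK12 and CDK13 was 0.70 ± 0.03 in shCON and 0.74 ± 0.05 in A2780 OlaR, against 1.92 ± 0.09 in shCEBPB and 1.44 ± 0.08 in A2780. Its mean in A2780 OlaR was 0.514 of that in A2780, which is less far apart than CDK12 alone. The sum of both kinases was 36.7 FPKM on average in shCON and in A2780 OlaR, 24.4 in shCEBPB and 26.6 in A2780. These ratios describe FPKM per length and not protein, and the comparisons between them were not tested.

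Between A2780 OlaR and shCON 2 of the 10 genes passed, against 42.2% of all genes tested. There the count was 4 for libraries 1 to 3 and 6 for libraries 4 to 8, against 47.5% and 56.5%. In the contrasts between the remaining pairs of groups, the share of the 10 genes that passed was near that of all genes tested. Between A2780 and shCON all 10 passed, 3 higher (ATM, CDK13 and CCNK) and 7 lower, against 91.4% of all genes tested. Between A2780 and shCEBPB 9 passed, 2 higher (ATM and CDK13) and 7 lower, against 88.9%. Between A2780 OlaR and shCEBPB 8 passed, 3 higher (ATM, WEE1 and CDK12) and 5 lower, against 83.7%. These contrasts join different cell lines and share groups with the comparisons above, so they serve only to order the levels.

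Proliferation markers moved with the higher genes of A2780 OlaR. The 12 markers summed to between 367 and 397 FPKM in A2780 and between 1342 and 1437 FPKM in A2780 OlaR, and 12 of 12 passed as higher, against 40.1% of all genes tested, with MCM3 (2.61, SE 0.03) and MCM5 (2.40, SE 0.05), subunits of the replicative helicase, at the largest log2 differences. In shCON the sum was 1241 to 1323 FPKM and in shCEBPB 1118 to 1218 FPKM, with 3 of 12 higher and 7 lower, against 38.9% and 45.7% of all genes tested, and the largest log2 differences at TOP2A (-0.83, SE 0.07) and MKI67 (-0.78, SE 0.09). The part of proliferation in the levels of CHEK1, CHEK2, TOPBP1 and WEE1 was not tested.

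The other genes of the pathways were described by lists, which are to be read against all genes tested. Between shCEBPB and shCON 38.9% of these were higher and 45.7% lower, and between A2780 OlaR and A2780 40.1% were higher and 49.7% lower. Of 10 genes that activate ATM or relay break signals, 3 were higher and 6 lower between shCEBPB and shCON (median log2 difference -0.39), and 7 were higher and 1 lower between A2780 OlaR and A2780 (median 0.33). After the knockdown the largest differences were at USP28 (-0.78, SE 0.06), a deubiquitinase, and RAD50 (-0.75, SE 0.08), a subunit of the complex that recruits ATM, both in the direction of ATM. In A2780 OlaR they were at MRE11 (0.98, SE 0.07), the nuclease of that complex, and at H2AX (0.79, SE 0.06), the histone that ATM marks, listed under its older symbol H2AFX, both opposite in sign to ATM.

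Of 12 genes that load or activate ATR or protect forks, 4 were higher and 7 lower between shCEBPB and shCON (median -0.31), and 8 were higher and 4 lower between A2780 OlaR and A2780 (median 0.57). RAD9A, a subunit of the clamp that binds TOPBP1, led both comparisons, at -1.42 (SE 0.07) and 1.58 (SE 0.06). It fell from 22.9 ± 1.13 FPKM (SD, n = 7) in shCON to 7.98 ± 1.0 (SD, n = 8) in shCEBPB. RPA1, the large subunit of the single-strand binding protein, was next after the knockdown, at 1.24 (SE 0.04), although RPA2 (-0.56) and RPA3 (-0.47) of the same complex were lower. TIPIN, of the fork protection complex, was next in A2780 OlaR, at 1.37 (SE 0.08).

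Of 12 genes of the CDC25 and CDK switch, on which CHK1 and WEE1 act, 5 were higher and 6 lower between shCEBPB and shCON (median -0.09). CCNE1, which encodes cyclin E1, was at 1.12 (SE 0.06), with a mean of 8.58 FPKM in shCON and 19.9 FPKM in shCEBPB, and CDC25C, a phosphatase that opens mitosis, was at -0.88 (SE 0.07). In A2780 OlaR 11 of the 12 were higher and 1, CCNE1 (-0.21, SE 0.05), was lower (median 0.94). The phosphatase gene CDC25B (1.94, SE 0.03) and the mitotic kinase gene AURKA (1.88, SE 0.03) had the largest differences.

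Among 9 phosphatases and stability factors of the checkpoint, 5 were higher and 2 lower after the knockdown (median 0.14), led by BTRC (0.77, SE 0.07), of the ubiquitin ligase that degrades CDC25A and WEE1, and TELO2 (0.75, SE 0.11), of the complex that stabilises the PI3K-like kinases. In A2780 OlaR 4 were higher and 3 lower (median 0.09), led by TTI1 (1.88, SE 0.04) and TELO2 (1.28, SE 0.09), which act in the same stabilising complex. Of the 4 other PI3K-like kinases, MTOR (0.61), TRRAP (0.38) and SMG1 (-0.51) passed between shCEBPB and shCON, and PRKDC, the kinase of end joining, was at 0.13 (limma adjusted p = 0.161). In A2780 OlaR, PRKDC (0.91), SMG1 (-0.56) and TRRAP (-0.21) passed, and MTOR was at -0.004 (limma adjusted p = 0.91).

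Of 15 other transcription CDKs, cyclins and their regulators, 5 were higher and 8 lower between shCEBPB and shCON (median -0.19), and 4 were higher and 10 lower between A2780 OlaR and A2780 (median -0.19). MNAT1, a subunit of the CDK7 kinase, had the largest difference after the knockdown, at -1.61 (SE 0.06), followed by CCNC, the cyclin of CDK8, at -0.91 (SE 0.07). In A2780 OlaR the largest were CDK19 (-2.01, SE 0.04), a relative of CDK8, and CCNH (-0.75, SE 0.07), the cyclin of CDK7.

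Some of the 10 genes varied together from library to library. Over the 31 libraries, ATR and TOPBP1 correlated at 0.97, CHEK1 and CHEK2 at 0.97, and CDK12 and CCNK at -0.92, which mostly restates the 4 group levels. With each library centred on its group mean, ATM and TOPBP1 correlated at 0.95 and ATM and ATR at 0.88, while ATRIP correlated with the other 9 genes at -0.45 to 0.28 and CHEK2 with CDK12, CDK13 and CCNK at 0.18, 0.18 and -0.13. ATRIP has the highest GC content of the 10 longest transcripts (58.6%), against 37.9% to 49.6% for the others. Within shCEBPB and A2780 OlaR, the libraries numbered 1 to 3 had more of the 2360 genes lowest in GC content than those numbered 4 to 8 (median log2 difference 0.25 and 0.27) and less of the 2358 genes highest in it (-0.34 and -0.25). The ranges stood apart for 7 of the 10 genes in A2780 OlaR and 5 in shCEBPB, always with libraries 1 to 3 higher. They did so for 3 in A2780, with libraries 1 to 3 lower, and for 0 in shCON. How many of all genes did so was not counted, so these counts do not set the 10 genes apart. The part of library composition in these correlations was not tested.

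**Figure D2:**
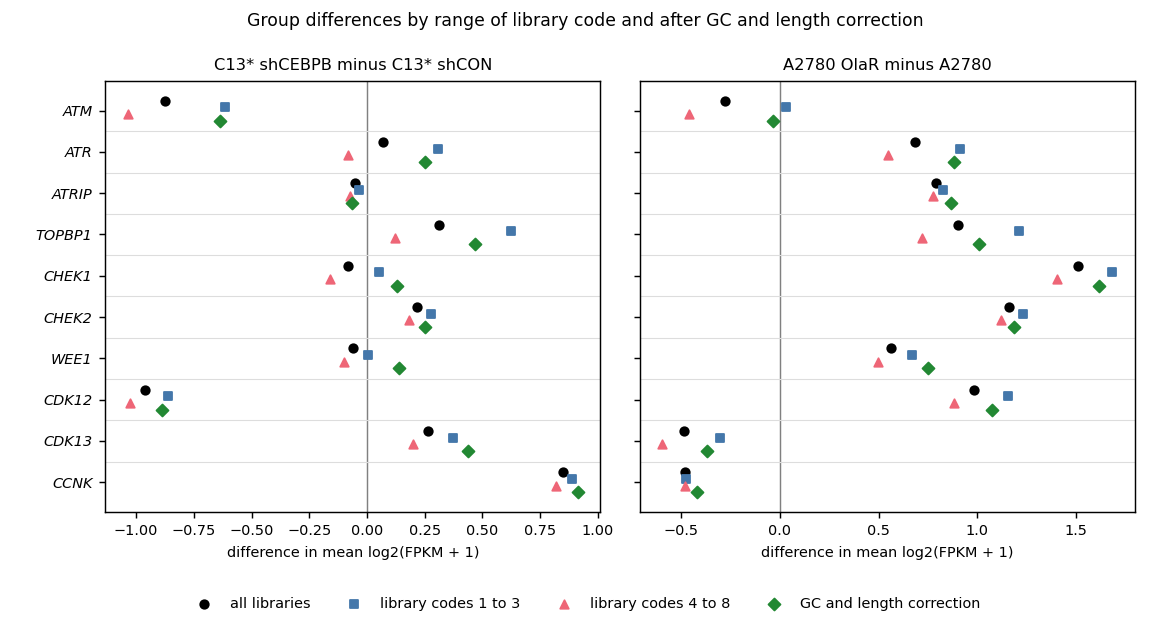
Difference in mean log2(FPKM + 1) between groups (horizontal axis) for each gene over all libraries, within libraries coded 1 to 3, within those coded 4 to 8, and after GC and length correction. CDK12, CDK13, CCNK and CHEK2 keep their side of 0 in both comparisons, while ATR, CHEK1 and WEE1 lie on either side of 0 between shCEBPB and shCON and ATM does between A2780 OlaR and A2780.

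The genes of the whole table most like a member were sought among 12281 genes by Pearson's r of log2(FPKM + 1), as a description. Over the 31 libraries the first were ATP11B for ATM (r = 0.992), MCU for ATR (0.981), NUP62CL for CHEK1 (0.995), RBBP4 for WEE1 (0.959) and CKAP2L for CDK12 (0.994). ATM was followed by TMEM131 (0.990) and ZNF721 (0.989), ATR by RAB14 (0.981) and MYCBP2 (0.980), CHEK1 by DDX18 (0.994) and ANLN (0.994), WEE1 by CFAP44 (0.957) and MAP3K5 (0.949), and CDK12 by WASHC5 (0.993) and ITGB6 (0.990). With libraries centred on their group mean, none of these genes stayed among the 3 most alike. The first were then RB1CC1 for ATM (0.969), PCNX4 for ATR (0.942), PICALM for CHEK1 (0.902), MSL2 for WEE1 (0.918) and HSPA14 for CDK12 (0.910).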

How the data were processed

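Values were taken for 31 libraries, 7 of C13* shCON and 8 each of C13* shCEBPB, A2780 and A2780 OlaR, grouped by their labels. The values the authors deposited were FPKM per gene, made from poly(A) RNA reads that, per the study's methods and the submitters' processing notes, were checked with FastQC, aligned by TopHat (genome hg38) and counted over genes. The annotation, the strand setting and the tool behind the FPKM are not given in the sources used here, so reads of overlapping genes may be shared. Of 19225 entries, 19221 were used, since 4 repeat a symbol. No pair of libraries held identical values. Positions and exon overlaps came from GENCODE 44 on hg38, which gave length and GC content for 95.1% of the genes, and promoter windows from RefSeq on GRCh38.p14.

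Groups were compared with limma 3.58.1 in R 4.3.3 (lmFit, eBayes with a trend, two-sided) on log2(FPKM + 1), over genes that reached 1 FPKM in no fewer libraries than the smaller group has, with Benjamini-Hochberg adjustment over all genes tested and a call at an adjusted p of 0.05. Only the groups compared entered a fit. An exact permutation test (two-sided, on the difference of means) was added for each of the 10 genes. The rest was done in Python 3.11.15 with pandas 2.3.3, scipy 1.17.1 and numpy 2.4.6, and figures with matplotlib 3.10.9. Tested on simulated data for shCEBPB against shCON, on 12006 genes, the fit found 92 of 100 genes changed by 0.5 on the log2 scale and 100 of 100 changed by 1, with 9 false calls in all. The simulated noise was independent between genes and only 200 genes were changed, while 84.7% of genes passed in the data. The false calls thus do not give the error of the reported calls.

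The 10 genes, the lists and the tests were chosen with earlier results of these data known. All 10 genes were named. From each list the 2 genes with the largest change among those called were named, beside all 4 of the other PI3K-like kinases, and for ATM, ATR, CHEK1, WEE1 and CDK12 the 3 genes most like each by Pearson's r, with the first of the 3 after centring. RPA2, RPA3 and CCNE1 in A2780 OlaR were named after their values were seen. Alternatives were pseudocounts of 0.1 and 0.01, no filter or a filter at 5 FPKM, a common sum, quantile and median ratio scaling, GC and length correction, 1 fit of all groups, replicate blocks, ranges of the library number, the set without shCON replicate 1, and an exact rank test. GC and length correction with the replicate block was added after seeing the data. Proteins and genome-wide counts of reads were not used here.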

Additional observations from a re-analysis of the deposited data

Results flagged for a closer look

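In A2780, TOPBP1 stood apart in replicate 8, at 15.2 FPKM, where the nearest of the other 7 libraries held 13.3 FPKM, a gap of 0.547 of the range of the group. It was the 1 such library in 40 groups of values examined (10 genes in 4 groups), and chance alone gives about 1 in 20. The TOPBP1 libraries of A2780 and A2780 OlaR did not overlap with this library included.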

How the results depend on the processing

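Of the counts of genes and of the 10 genes called, 117 values under alternative settings stayed within 1.5 times the reported count, and 7 did not. All 7 concern A2780 OlaR against shCON, where 2 genes were called. The count was 1 with a common sum, with either replicate block and without shCON replicate 1, 4 with GC and length correction and for libraries 1 to 3, and 6 for libraries 4 to 8. WEE1 was called in each of these settings, and CCNK was the call lost where the count was 1. Between shCEBPB and shCON 9 of the 10 genes were called with GC and length correction, with or without the block, against 6. Of 290 log2 differences of single genes under these settings, 273 kept their direction and side of the threshold, 9 came to pass and 4 no longer did, of which 4 and 1 also changed sign, and 4 changed sign alone. Those that changed sign between shCEBPB and shCON were ATR for libraries 4 to 8 (-0.0815), ATRIP with quantile normalization (0.0501), CHEK1 with GC and length correction (0.13), with the replicate block added to it (0.11) and for libraries 1 to 3 (0.05003), and WEE1 in the same settings (0.14, 0.14 and 0.00297). Between A2780 OlaR and A2780 only ATM did, for libraries 1 to 3 (0.0310). The cause was not tested. Same-numbered libraries did not deviate together (mean r of -0.139 for shCEBPB and shCON and -0.229 for A2780 OlaR and A2780), so the replicate number was not taken to pair them. With the replicate block, 9885 and 10960 genes were called, against 10166 and 11190, and the same number of the 10 genes, 6 and 10. FPKM carry no read totals, so no counting error is given.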
